A study of Rattus norvegicus with 8 samples.

Results

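The miR-23/27/24 clusters are a pair of short miRNA genes, here called the a cluster (mir-23a, mir-27a and mir-24-2) and the b cluster (mir-23b, mir-27b and mir-24-1). Their members were taken by name from the deposited table as miR-23a, miR-23b, miR-27a, miR-27b, miR-24 and every second arm ("star" arm, written *) listed for them, which gave 11 of the 620 miRNAs. Of these 11, 5 come from the a cluster alone, 5 from the b cluster alone, and miR-24 from both, because its sequence is the same in either cluster. Small RNA was sequenced from the kidneys of 4 control and 4 AA-treated rats, 1 library per rat. All 8 were male Big Blue transgenic rats of the Fisher 344 strain, a line that carries a bacteriophage lambda reporter for mutation assays, so that both groups share this transgene. Aristolochic acid (AA), a nephrotoxic carcinogen of Aristolochia plants, was gavaged as the sodium salt (10.0 mg/kg, volume 4 ml/kg) on 5 days of each week from an age of 6 weeks, and controls received 0.9% sodium chloride instead. The treatment lasted 12 weeks by the protocol, whereas the single sample descriptions state 12 weeks for rat 1, 13 for rat 2, 14 for rat 3 and 15 for rat 4 in either group, with an age of 18 weeks for every rat. The libraries held 13412373 to 15616670 counts. RNA came from a piece of kidney with all its cell types, so that fewer cells of a type and less RNA per cell cannot be told apart.

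The 3 hairpins of a cluster are cut from 1 primary transcript, and one arm of each hairpin, the guide, is usually loaded into the silencing complex while the star arm is mostly discarded. miR-27 is known for repression of the adipogenic regulator Pparg, miR-23 for repression of glutaminase, and miR-24 for repression of cell cycle genes and of the DNA damage histone H2AX. Both clusters are also known from endothelial cells and the growth of blood vessels. In the RefSeq gene table of the rat assembly GRCr8 the a cluster lies on chromosome 19 with Zswim4 and Nanos3 as the nearest protein-coding genes on either side, and the b cluster lies on chromosome 17 inside Aopep, the gene of an aminopeptidase. Positions are not given, because the deposited table names no build.

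The guide arms are shown because they decide what the counts can tell apart. The capitals mark the seed, bases 2 to 8 counted from the 5′ end, through which a miRNA pairs with its targets. RefSeq (GRCr8) held the sequence of 10 of the 11 members, all but miR-23a*.
miR-23a: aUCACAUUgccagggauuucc
miR-23b: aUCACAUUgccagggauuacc
miR-27a: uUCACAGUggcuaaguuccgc
miR-27b: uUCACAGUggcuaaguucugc
miR-24: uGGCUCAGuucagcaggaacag
miR-23a and miR-23b have the same seed and differ by 1 base, U19A, with positions counted from 1 at the 5′ end and the base of the a member first. miR-27a and miR-27b likewise share a seed and differ by C19U alone. A read that stops within the first 18 bases therefore matches both members of either pair, and the rule by which such reads were counted is not given in the sources used here.

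The star arms differ more between the clusters and are shown in the hairpins of miR-27 and miR-24, where capitals mark the star arm (first) and the guide arm (second).
Mir27a: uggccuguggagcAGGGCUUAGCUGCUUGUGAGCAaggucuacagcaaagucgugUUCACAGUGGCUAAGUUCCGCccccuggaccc
Mir27b: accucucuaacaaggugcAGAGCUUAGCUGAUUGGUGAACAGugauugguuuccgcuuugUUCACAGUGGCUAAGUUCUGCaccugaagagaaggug
Mir24-2: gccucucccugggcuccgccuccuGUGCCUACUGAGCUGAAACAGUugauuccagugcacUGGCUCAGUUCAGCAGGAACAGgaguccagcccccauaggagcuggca
Mir24-1: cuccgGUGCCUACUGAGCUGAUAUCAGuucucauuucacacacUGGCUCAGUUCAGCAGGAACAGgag
miR-24 is the same run of 22 bases in both hairpins, so its count cannot be divided between the clusters. miR-24-2* and miR-24-1* share their first 16 bases and differ from base 17 on, and miR-27a* and miR-27b* differ from base 3 on.

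The 5 guide arms were among the 49 most abundant of the 620 miRNAs in the kidney. Levels are given as normalized counts, which are read counts divided by median-of-ratios size factors. A read covers a whole miRNA, so that levels were not divided by length, and how evenly different sequences were ligated and amplified was not tested. rno-miR-24 (rno for Rattus norvegicus, left out elsewhere) was the most abundant member, with 114357 ± 24749 normalized counts in the controls (SD, n = 4), and rno-miR-27b followed with 49809 ± 17455 (SD, n = 4). rno-miR-23a, rno-miR-27a and rno-miR-23b had means of 15790, 15184 and 15034 in the control rats, and the order of these 3 differed between libraries, so that they were not separated. Of the star arms, miR-24-2* had 1505 ± 228, miR-24-1* 193 ± 41.1, miR-27a* 91.1 ± 38.9 and miR-27b* 87.5 ± 21.2 normalized counts in the controls (SD, n = 4 each), of which miR-27a* and miR-27b* changed places between libraries. In the AA-treated rats miR-24-1* was above miR-27a* in 2 of 4 libraries, so that these were not separated there. miR-23a* and miR-23b* had 1 to 7 counts per library in all 8 rats, too few to compare.

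Within the same library, miR-27a was below miR-27b in 8 of 8 rats, by a factor of 2.58 on average (exact sign-flip permutation test of the log2 ratio, two-sided, p = 0.00781, the smallest p that 8 libraries allow). The mean log2 ratio of miR-27a to miR-27b was -1.71 in the controls alone and -1.02 in the AA-treated rats alone. The star arms of miR-24 were in the opposite order, with miR-24-2* of the a cluster 8.94-fold above miR-24-1* of the b cluster in 8 of 8 rats (same exact test, p = 0.00781). miR-23a was above miR-23b in 7 of 8 rats by a factor of 1.14 (same exact test, p = 0.0234), with a mean log2 ratio of 0.05 in the controls alone and 0.33 in the AA-treated rats alone. For the star arms of miR-27 the a member was higher in 5 of 8 rats (same exact test, p = 0.359).

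After AA treatment, miR-27b of the b cluster and miR-24-2* of the a cluster were the members whose AA-treated rats did not overlap the control rats, miR-27b lower and miR-24-2* higher. Neither passed the thresholds for a differentially expressed miRNA, an adjusted p under 0.05 in the quasi-likelihood test of edgeR (Benjamini-Hochberg adjustment over the 620 miRNAs) together with a ratio of group means over 1.5. None of the 11 members passed both in edgeR, in DESeq2 or in limma-voom without further terms (miR-24-2* with total counts and miR-27a* with a replicate block are given below), where edgeR called 9.03% of the 620 miRNAs, 5.81% higher and 3.23% lower. At an unadjusted p under 0.05, edgeR gave 3 of the 11 members, against 23.9% of all miRNAs. Separation of the groups was found for 1 member upward and 1 downward of 11, against 9.68% and 6.61% of all miRNAs, so that these counts were close to those of the table as a whole. The median log2 fold change was 0.10 over the 11 members, 0.37 over the 5 of the a cluster and -0.04 over the 5 of the b cluster, beside 0.05 over all 620 miRNAs. The a cluster median is the fold change of miR-23a* itself, and the b cluster median counts miR-23b*. Both of these arms had too few counts to compare.

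miR-27b had 40942, 42888, 39497 and 75909 normalized counts in control rats 1 to 4 and 35419, 24901, 30638 and 38724 in AA-treated rats 1 to 4. Each AA-treated rat was thus below each control rat, and control rat 4 stood far above the rest. The ratio of the control mean to the AA mean was 1.54, with a log2 fold change of -0.62 (SE, the standard error, 0.24, with an adjusted p = 0.135 from edgeR). Without control rat 4 the log2 fold change was -0.35 (adjusted p = 0.273 from edgeR), and without both rats numbered 4 it was -0.43 (adjusted p = 0.142 from edgeR). The means were then 41109 ± 1702 in the controls and 30319 ± 5266 after AA treatment (SD, n = 3 each). Leaving out rats cannot make separated groups overlap, so that the omission does not test the separation.

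miR-24-2*, the star arm made only from the a cluster, had 1577, 1468, 1761 and 1216 normalized counts in the controls and 1905, 2166, 2191 and 2117 after AA treatment. The lowest AA-treated rat was above the highest control rat. The ratio of means was 1.39, below the 1.5 of the threshold, and the log2 fold change was 0.48 (SE 0.19, with an adjusted p = 0.156 from edgeR and 0.0408 from DESeq2). Scaled by total counts, it passed both thresholds (log2 fold change 0.73, adjusted p = 0.0495 from edgeR). miR-27a*, also of the a cluster, had 93.5, 42.8, 90.1 and 138 normalized counts in the controls and 197, 88.2, 131 and 221 after AA treatment. The groups overlapped, with AA-treated rat 2 below 3 of the 4 control rats. Its log2 fold change was 0.81 (SE 0.37, with an adjusted p = 0.200 from edgeR). With the rat number as a replicate block it passed both thresholds (log2 fold change 0.83, adjusted p = 0.0243 from edgeR). Same-numbered rats are separate animals and were not taken as pairs, and the block raised the calls over all miRNAs from 56 to 74.

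The other members had smaller differences between the groups or rested on few reads. miR-24 had 110359 ± 10330 normalized counts after AA treatment (SD, n = 4), a log2 fold change of -0.05 (SE 0.19, with an adjusted p = 0.874 from edgeR) that was above 0 with total counts and without control rat 4. miR-23a and miR-27a had 18595 ± 4126 and 16317 ± 5131 after AA treatment, against 15790 ± 5673 and 15184 ± 5352 in the control rats (SD, n = 4 each). These differences were smaller than the SDs of either group, and that of miR-27a changed sign without AA-treated rat 4. miR-23b had 15034 ± 4587 in the controls and 14598 ± 1466 after AA treatment (SD, n = 4 each), and its log2 fold change of -0.04 changed sign with TMM normalization, with total counts and without control rat 4. miR-24-1* and miR-27b*, the star arms of the b cluster, had log2 fold changes of 0.10 and 0.22 (SE 0.24 and 0.27).

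**Figure D1:**
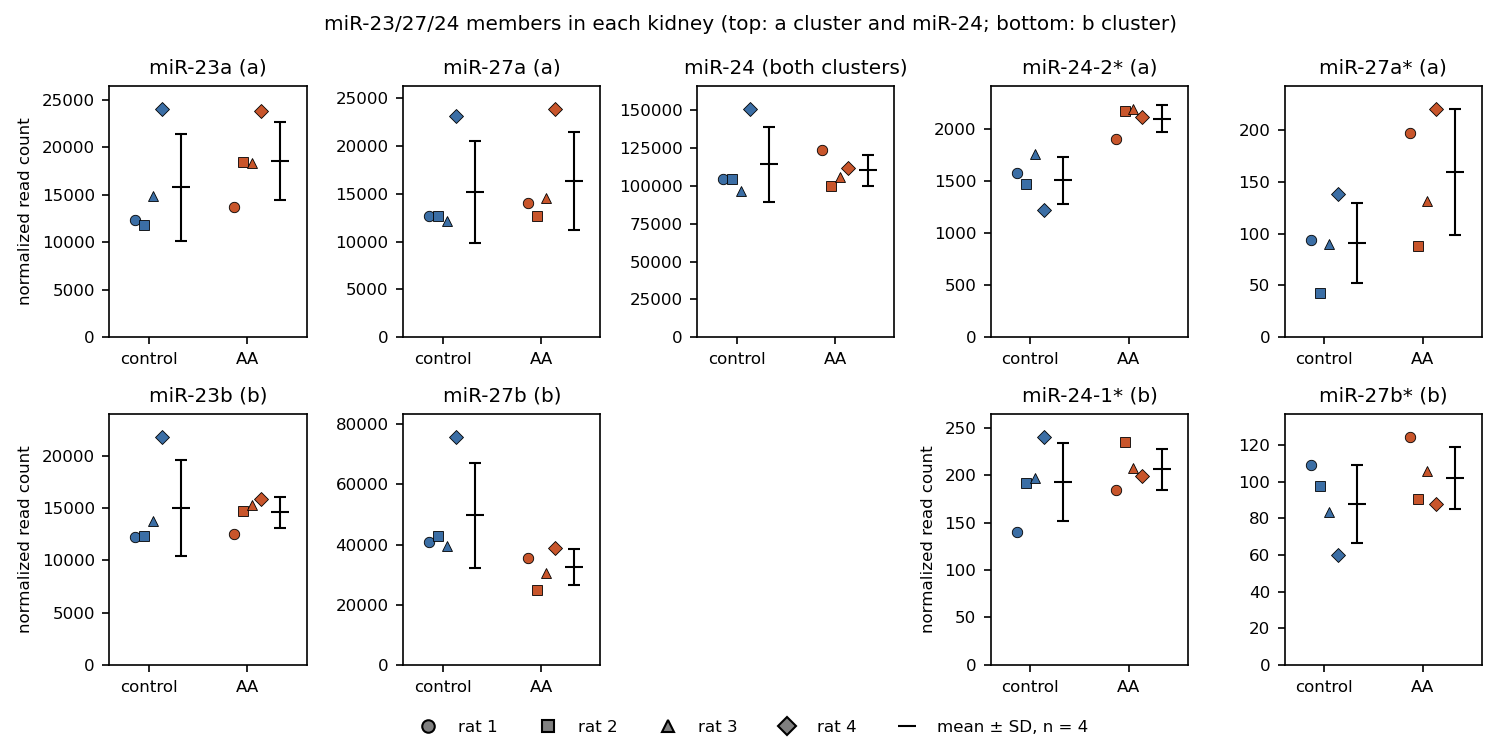
Normalized read counts (vertical axes, from 0) of 9 members in the 4 control and 4 AA-treated rats, with the a cluster and miR-24 in the top row and the b cluster in the bottom row. Symbols are single rats and bars are the mean ± SD (n = 4). The groups are separated for miR-27b, with 24901 to 38724 after AA treatment below 39497 to 75909, and for miR-24-2*, and control rat 4 is the highest control rat for all 5 guide arms.

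**Figure D2:**
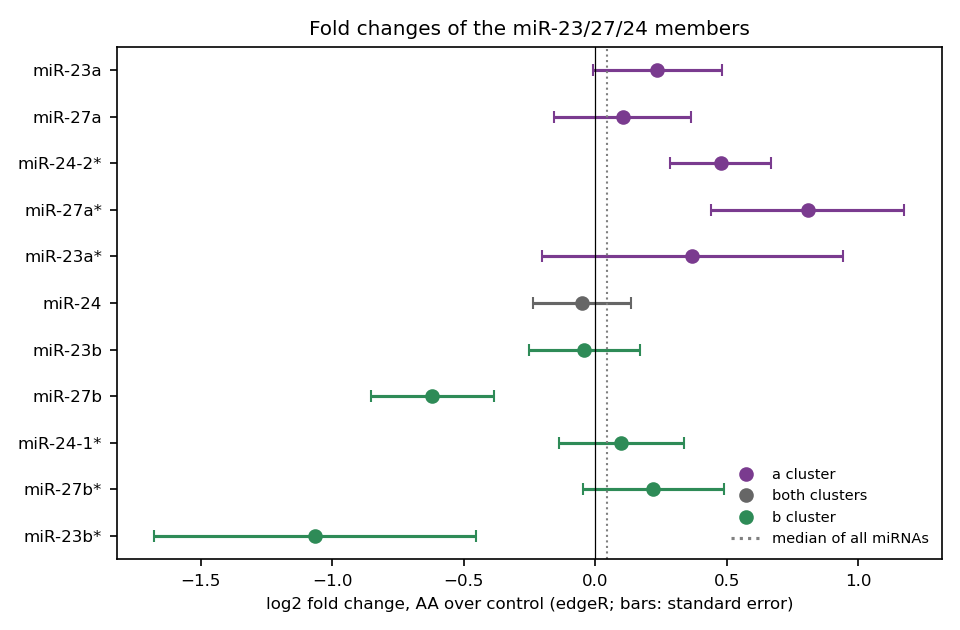
Log2 fold change of AA-treated over control rats for the 11 members (horizontal axis, edgeR, bars are the standard error), coloured by cluster, with the median of all 620 miRNAs as a dotted line at 0.05. The 5 members of the a cluster lie to the right of 0, as does the median of all miRNAs, but the bars of miR-23a, miR-27a and miR-23a* cross 0. miR-27b lies at -0.62.

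The contrast of the clusters asks whether their products kept a constant proportion after AA treatment. It was measured as the ratio of an a member to the matching b member in the same library, which does not depend on the size factors. miR-27a and miR-27b had a nearly fixed proportion in the control kidneys and a higher and more variable one in the AA-treated kidneys. There were 0.309, 0.297, 0.308 and 0.306 reads of miR-27a per read of miR-27b in control rats 1 to 4, and 0.398, 0.509, 0.476 and 0.618 in AA-treated rats 1 to 4. All AA-treated rats were above all control rats, and the 4 control rats lay within a narrow band. The mean was 0.305 ± 0.00558 in the controls and 0.50 ± 0.0911 after AA treatment (SD, n = 4 each), and the mean log2 ratio differed by 0.70, a factor of 1.62 (exact permutation test, two-sided, which gave p = 0.0286, the lowest value possible with 4 rats against 4). On omission of single rats the difference stayed between 0.59 and 0.80 on the log2 scale, and without both rats numbered 4 it was 0.59.

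In total 15 ratios between or within the clusters were compared, and 3 of them reached this smallest p. All 3 contain the reads of miR-27b, whose level separated the groups by itself, so that they are not independent results. Adjusted over the 15 by the Benjamini-Hochberg method, their p was 0.143 in the same exact permutation test, so that none passed after adjustment, and with 4 rats per group a few ratios cannot pass it.

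**Figure D3:**
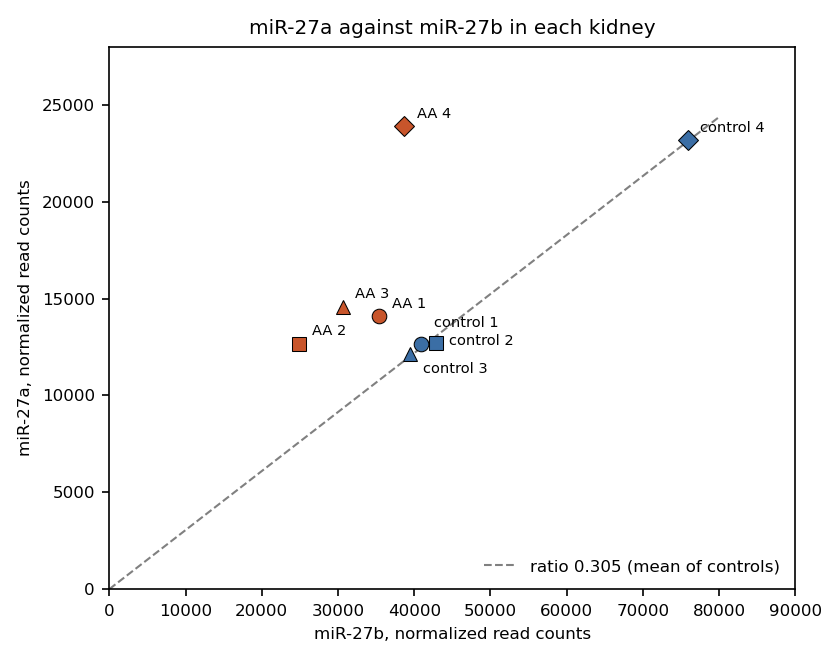
miR-27a (vertical axis) against miR-27b (horizontal axis), both in normalized read counts, 1 point per rat, with blue for control and orange for AA-treated rats. The dashed line is the mean ratio of the control rats, 0.305. The 4 control rats lie along it, control rat 4 included at 75909 and 23203 counts, and the 4 AA-treated rats lie above it.

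The ratio of the miR-23 guides differed less between the groups. There were 1.01, 0.963, 1.08 and 1.102 reads of miR-23a per read of miR-23b in the controls and 1.099, 1.25, 1.20 and 1.502 after AA treatment. AA-treated rat 1 was level with control rat 4 and just below it, and the other AA-treated rats were above all control rats. The mean log2 ratio was 0.27 higher after AA treatment, a factor of 1.21 (exact permutation test, two-sided, p = 0.0571, adjusted over 15 ratios 0.171). When the miR-23 and miR-27 guides of each cluster were summed, the a to b ratio was 0.477 ± 0.0260 in the controls and 0.739 ± 0.124 after AA treatment (SD, n = 4 each), without overlap. This is a log2 difference of 0.62 (exact permutation test, two-sided, p = 0.0286, adjusted 0.143), and it shares its reads with the ratios of the single guides.

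The star arms, which are easier to tell apart by sequence, gave a less even picture. The ratio of miR-24-2* to miR-24-1* was 11.2, 7.64, 8.93 and 5.05 in the controls and 10.4, 9.22, 10.6 and 10.7 after AA treatment. Control rat 1 was the highest and control rat 4 the lowest of all 8, and the groups overlapped (log2 difference 0.37, exact permutation test, two-sided, p = 0.229). Without control rat 4 the difference was 0.16. The ratio of miR-27a* to miR-27b* was 0.857, 0.438, 1.08 and 2.31 in the controls and 1.59, 0.974, 1.24 and 2.51 after AA treatment. The rats numbered 4 were the highest of both groups, and the groups overlapped (log2 difference 0.59, exact permutation test, two-sided, p = 0.371). This difference was 0.20 without control rat 2, 0.34 without AA-treated rat 4 and 1.00 without control rat 4.

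**Figure D4:**
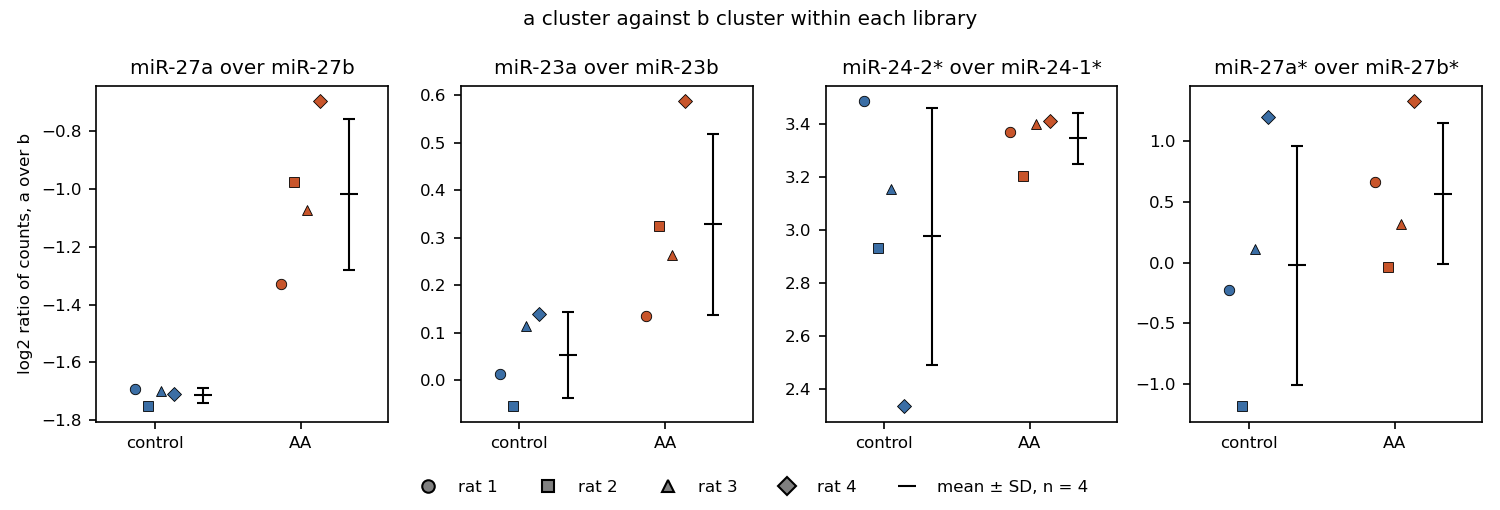
Log2 ratio of read counts of an a member over the matching b member (vertical axes, which do not start at 0 and differ between panels) in the 4 control and 4 AA-treated rats, with the mean ± SD (n = 4) as bars. The groups are separated for miR-27a over miR-27b and overlap in the other 3 panels, most widely for the star arms of miR-27.

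Products of 1 transcript were then set against each other. Within the b cluster, the ratio of miR-27b to miR-23b, which shares the reads of miR-27b with the ratios above, separated the groups. There were 3.34, 3.49, 2.87 and 3.48 reads of miR-27b per read of miR-23b in the control rats, and 2.83, 1.69, 2.003 and 2.44 after AA treatment. The highest AA-treated rat was just below the lowest control rat. The mean log2 ratio differed by -0.58 (exact permutation test, two-sided, p = 0.0286, adjusted over 15 ratios 0.143), and on omission of single rats the difference was -0.70 to -0.45. Within the a cluster, miR-27a per read of miR-23a was 1.02, 1.07, 0.816 and 0.964 in the controls and 1.02, 0.688, 0.795 and 1.00 after AA treatment. These overlapped (log2 difference -0.16, exact permutation test, two-sided, p = 0.371).

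The star arm of the miR-27b hairpin overlapped between the groups, unlike its guide. miR-27b* had 109, 97.7, 83.4 and 59.9 normalized counts in the controls and 125, 90.5, 106 and 87.9 after AA treatment, lowest in control rat 4. Relative to its guide, miR-27b* was on average 0.82 higher on the log2 scale after AA treatment (exact permutation test, two-sided, p = 0.0857), and 0.43 higher without control rat 4, in which this ratio was lowest. miR-27a* was 0.72 higher relative to miR-27a (exact permutation test, two-sided, p = 0.0857), miR-24-2* 0.52 higher relative to miR-24 (p = 0.0571 in the same exact test), and miR-24-1* 0.15 higher relative to miR-24 (p = 0.486 in the same exact test). The difference for miR-24-2* was 0.28 without control rat 4, that for miR-27a* was 0.46 without control rat 2, and that for miR-24-1* ranged from 0.04 to 0.26 on omission of single rats. miR-24 relative to the sum of the miR-23 and miR-27 guides differed by 0.15 on the log2 scale, with p = 0.314 in the same exact test.

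Control rat 4 stood apart in the levels of the guide arms but not in the proportion of miR-27a to miR-27b. Its level was 1.85 times the mean of the other 3 control rats for miR-23a, miR-27a and miR-27b, 1.71 times for miR-23b and 1.48 times for miR-24. Of the star arms of the same kidney, miR-24-2* was at 0.759 and miR-27b* at 0.619 times the mean of the other control rats. miR-27a* was at 1.83 and miR-24-1* at 1.36 times. In AA-treated rat 4 the miR-23 and miR-27 guides of the a cluster stood out more than those of the b cluster. Against the mean of the other AA-treated rats, miR-27a was at 1.74 times and miR-23a at 1.42 times. In the b cluster, miR-27b was at 1.28 times and miR-23b at 1.12 times. Of the star arms in that rat, miR-27a* was at 1.59, miR-24-2* at 1.01, miR-24-1* at 0.952 and miR-27b* at 0.823 times. Together the 11 members took 1.33% ± 0.298 of all counts in the controls and 1.47% ± 0.163 after AA treatment (SD, n = 4 each, exact permutation test, two-sided, p = 0.400). The direction turned when the 3 most abundant miRNAs were left out of the total, with 3.10% in the controls and 2.77% after AA treatment (exact permutation test, two-sided, p = 0.600). The 95% Wilson interval of this share was at most 0.0140 percentage points wide in a library and covers counting error only.

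The patterns of the guide arms over the 8 rats were compared with those of 232 other miRNAs that had a mean of at least 100 normalized counts. Likeness was the Pearson correlation of log2 normalized counts, and it is given as a description over 8 rats that share libraries and size factors. miR-27b was most like miR-192 (0.966), miR-139-3p (0.964) and miR-218 (0.947). miR-27a was most like miR-328a (0.983), miR-210 (0.943) and let-7d* (0.938), and miR-23a most like let-7d* (0.968), miR-3596a (0.919) and miR-331 (0.879). The nearest for miR-23b were miR-3596a (0.885), miR-30d* (0.881) and miR-210 (0.876), and for miR-24 miR-421* (0.926), miR-184 (0.869) and miR-30d* (0.859). Of these, let-7d* was near both a guides, while miR-3596a was near miR-23a and miR-23b, miR-210 near miR-27a and miR-23b, and miR-30d* near miR-24 and miR-23b. Without control rat 4, the value for miR-30d* dropped to 0.184 with miR-24 and to 0.458 with miR-23b, whereas that of miR-192 with miR-27b was 0.887. By rank correlation (Spearman) over the 8 rats, miR-27a had 0.81 with miR-328a, 0.50 with miR-210 and 0.69 with let-7d*. The highest level of miR-27a in each group was that of the rat numbered 4.

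Of 16 other miRNAs known from blood vessel growth, a list chosen with earlier results of these data known and therefore no independent evidence, 4 rose and none fell by the same thresholds (all miRNAs 5.81% and 3.23%). These were miR-132 (log2 fold change 1.95), which endothelial cells induce on growth factor stimulation, miR-18a of the miR-17-92 cluster (1.16), and miR-221 and miR-222 (0.82 and 0.75), a pair that restrains the cell cycle inhibitor p27. The other 12 (miR-126, miR-126*, miR-210, miR-130a, miR-10b, miR-17-5p, miR-19a, miR-19b, miR-20a, miR-92a, miR-296* and let-7f) had log2 fold changes of -0.62 to 0.66 and were not called. The median log2 fold change of the 16 was 0.44, beside 0.05 over all miRNAs. miR-126, the defining miRNA of endothelium, had 111727 normalized counts on average in the controls and 95149 after AA treatment (log2 fold change -0.23, adjusted p = 0.527 from edgeR).

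Markers of other cells were set beside these results. The summed level of the 4 leukocyte miRNAs in the table (miR-142-3p, miR-142-5p, miR-223 and miR-150) was 13715 to 17802 normalized counts in the controls and 29485 to 56648 after AA treatment, and 2 of the 4 were called higher. The 3 fibroblast miRNAs (miR-199a-3p, miR-199a-5p and miR-214) summed to 6549 to 7895 and 7788 to 13669, with none called. The 2 endothelial arms of miR-126 summed to 124106 to 164003 and 88876 to 137262, with none called. The 11 kidney tubule miRNAs summed to 3792569.5 to 4461459 in the controls and to 2855447 to 4147446 after AA treatment, with 1 called lower (miR-204) and none at 0. Most of this sum was miR-30a and miR-10a-5p. miR-200c and miR-141 had log2 fold changes of 0.37 and 0.08, and the other tubule miRNAs were below 0. The 2 red cell miRNAs summed to 6910 to 11910 and 2172 to 8116, the 2 smooth muscle miRNAs to 2552498 to 3542001 and 1959385 to 2668709, and the 4 muscle miRNAs to 500 to 840 and 446 to 624, with none called. Nearly all of the smooth muscle sum was miR-143, with a log2 fold change of -0.41, against 0.22 for miR-145. The 2 arms of miR-122, a liver miRNA, summed to 64.8 to 759 and 10.1 to 7754. The part of these cells in the higher ratio of miR-27a to miR-27b was not tested.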

How the data were processed

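Small RNA of 22 to 30 bases from 8 rat kidneys was sequenced for 36 cycles on an Illumina Genome Analyzer II (CASAVA 1.7 per the submitters' processing notes). The authors masked adaptors, removed contaminated reads and assigned reads to the rat miRNAs of miRBase release 16 with miRanalyzer at default settings. The deposited values are raw read counts per mature miRNA and rat, neither normalized nor pooled. Groups and rat numbers come from the sample titles. Whether reads were unique molecules was not recorded, so that intervals cover counting error only.

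All 620 miRNAs were fitted together with edgeR 4.0.16 (quasi-likelihood test, median-of-ratios size factors, no covariate, R 4.3.3), and standard errors are the log2 fold change over the root of the F statistic. Ratios used log2 of counts plus 0.5, with exact permutation tests over 70 labelings. Likeness used log2 of normalized counts plus 1. Python 3.11.15, scipy 1.17.1 and matplotlib 3.10.9 were used for these and the figures. The fits were tested on simulated data, where 56.3% of 2-fold and 100% of 4-fold changes were called at a mean of at least 10 counts. Of the simulated calls, 4% were false. Alternatives were TMM, total counts, DESeq2 1.42.0, limma-voom (limma 3.58.1), robust moderation, a filter of at least 10 counts in at least 4 rats, a replicate block, a pseudocount of 1, ratios of group sums and omission of rats.

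The miRNAs named were all members, the 3 most alike of each guide, and the lists for vessel growth and cell types. Members and lists were chosen with earlier results of these data known. miR-155 of those lists was not analysed here.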

Additional observations from a re-analysis of the deposited data

Results flagged for a closer look

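In groups of 4 rats, a value was picked out when its gap to the nearest other rat passed Dixon's 95% critical value, which chance does in about 1 of 20 groups. Among 52 groups of levels and ratios, 6 values were picked out, 4 of them levels in control rat 4. These were miR-27b at 75909, miR-27a at 23203, miR-23b at 21835 and miR-24 at 151079.9 normalized counts, each far above the other 3 control rats. AA-treated rat 4 was far above its group for miR-27a, at 23917 normalized counts. In the same rat the log2 ratio of miR-27b* to miR-27b was -8.78, below the other AA-treated rats.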

How the results depend on the processing

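The number of differentially expressed miRNAs was 56 and lay between 54 and 74 under the alternatives with all 8 rats, 40 to 62 on omission of single rats, and 42 without both rats numbered 4. With total counts, the median over all miRNAs (log2 fold change) went from 0.05 to 0.31, and the calls were 58 higher and 11 lower in place of 36 and 20. miR-24-2* passed both thresholds only with total counts (log2 fold change 0.73, adjusted p = 0.0495 from edgeR), and miR-27a* only with the replicate block (0.83, adjusted p = 0.0243 from edgeR). The fold changes of miR-23a, miR-27b, miR-24-2*, miR-27a* and miR-27b* kept their sign under all 16 alternatives. That of miR-27b lay between -0.71 and -0.35 with an adjusted p of 0.0505 to 0.342. Near 0, miR-23b changed to 0.0085 with TMM, 0.24 with total counts, 0.19 without control rat 4, 0.023 without AA-treated rat 1 and 0.16 without both rats numbered 4. miR-24 changed to 0.21, 0.10 and 0.12 with total counts, without control rat 4 and without both rats numbered 4, miR-27a to -0.13 without AA-treated rat 4 and miR-24-1* to -0.025 without control rat 1. Of the ratios, miR-23a* over miR-23a, which rests on 1 to 6 counts, changed from 0.073 to -0.0034 with a pseudocount of 1, -0.134 without control rat 2, -0.016 without control rat 4, -0.059 without AA-treated rat 3 and -0.0098 without both rats numbered 4. The share of counts taken by the members changed from 0.142 percentage points higher after AA treatment to -0.331 when the 3 most abundant miRNAs were left out of the total. On omission of single rats the fold change ranged from -0.13 to 0.37 for miR-27a, -0.12 to 0.10 for miR-24, -0.13 to 0.19 for miR-23b and -0.025 to 0.22 for miR-24-1*. The cause of these changes was not tested.

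Same-numbered rats are separate animals. Besides the number they share the duration in their sample descriptions, which the protocol does not bear out. The correlation of their deviations from the group means over 370 miRNAs was -0.011 for the rats numbered 1, 0.143 for 2, 0.125 for 3 and 0.337 for 4, over 0.1 in 3 of 4 pairs, with -0.282 to 0.247 for rats with different numbers. Since 1 pair was below 0.1, the numbers were not taken to pair the rats. With the replicate block edgeR gave 74 calls. In the 4 same-numbered pairs the log2 ratio of miR-27a to miR-27b was higher after AA treatment in 4 of 4, by 0.70 on average. The exact sign-flip test gave p = 0.125, the smallest p that 4 pairs allow. Because the groups did not overlap in this ratio, any other pairing would give the same count, mean and p. The test by pairs therefore adds no evidence beyond that separation. Leaving out both rats numbered 4 was added for the ratios after the data were seen. The tests on ratios without a rat cannot give a p below 0.0571.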
